A study of Mus musculus with 4 samples.

Results

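The cardiac myosin heavy chain genes Myh6, Myh7 and Myh7b and the antisense noncoding gene Mhrt were followed through 4 libraries of mouse heart RNA. They were chosen by symbol: every deposited RefSeq transcript that maps to these 4 genes was taken, which gave 6 transcript rows of 41449 and 4 genes of 24906. RNA was extracted from whole hearts and sequenced after poly(A) selection with a kit that keeps the strand, and each library pools 3 hearts of mice aged 12 weeks. The dC10mut library holds RNA of cMyBP-CΔC10mut mice, which carry a transgene with the 25-bp variant of MYBPC3, and its partner NTG that of nontransgenic mice; the strain label of this pair is C57BL/6. The tt library holds RNA of cMyBP-C(t/t) mice and its partner, named control, that of control mice; the strain label of this pair is FvB/N. The series names the first pair as a model of hypertrophic cardiomyopathy (HCM) and the second as a model of dilated cardiomyopathy (DCM), so the question for each pair is how a model heart differs from its own control. MYBPC3 encodes cardiac myosin binding protein C, which sits on the thick filament that the myosin heavy chains build. Neither the promoter of the transgene nor the nature of the t allele is given in the sources used here.

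The myosin heavy chain is the motor protein of the sarcomere. In the mouse, the ventricle uses mainly the beta chain (Myh7) before birth and mainly the faster alpha chain (Myh6) in adult life, and Myh7 is known as a gene that returns under load or disease. Thyroid hormone activates Myh6 and represses Myh7. Myh7b encodes a further, slow type of heavy chain. Each of the 3 protein-coding genes carries a microRNA gene in an intron, Mir208a in Myh6, Mir208b in Myh7 and Mir499 in Myh7b. Mhrt, a noncoding RNA of the heart, is made from the strand opposite Myh7 and is known to bind the chromatin remodeller Brg1.

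Each group has 1 library, so no comparison has a replicate check, no p-value is given, and the intervals below cover counting error only. The total counts were 187365 in dC10mut, 170543 in NTG, 186420 in tt and 176633 in control, and 1 count was worth 5.19 to 6.24 CPM (the count after TMM scaling of the libraries to 1 size). Genes with a count numbered 6718 to 6982 per library, and those with 10 or more 1694 to 1998. Mybpc3 held 368 counts in dC10mut, 344 in NTG, 412 in tt and 266 in control; rows count transcripts and not alleles, so these values do not check the genotype labels. The Xist and Tsix rows together held 155 counts in dC10mut, 0 in NTG, 173 in tt and 0 in control, so in both pairs genotype and the sex of the pooled mice cannot be told apart. In RNA of whole hearts, fewer cells of a type and less RNA per cell cannot be told apart.

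On chromosome 14 (GRCm38, GENCODE M21), Myh6 spans 54941921 to 54966641 and Myh7 spans 54970684 to 54994626, both on the minus strand. Mhrt lies on the plus strand from 54968787 to 54974349. It starts 2145 bases from the start of Myh6 and runs for 3666 bases inside the span of Myh7. Of the 828 exon bases of Mhrt, 463 (55.9%) lie opposite exons of Myh7, and exons 2 and 3 of Mhrt lie wholly opposite Myh7 coding bases. The following 4 sequences, from GENCODE transcripts, show what the 2 rows share. Exon 1 of Mhrt (54968787 to 54968847) has no base opposite a Myh7 exon, exon 2 (54971410 to 54971490) is covered in full, and exon 4 (54973461 to 54973526) is covered over 45 of 66 bases. Capitals mark bases opposite a Myh7 exon, and in the Myh7 line, which is the reverse complement of Mhrt exon 2, they mark coding bases.
Mhrt exon 1: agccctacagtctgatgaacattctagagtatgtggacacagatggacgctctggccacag
Mhrt exon 2: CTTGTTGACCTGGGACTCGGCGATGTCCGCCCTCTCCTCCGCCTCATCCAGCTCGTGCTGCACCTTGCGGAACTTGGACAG
Myh7 opposite Mhrt exon 2: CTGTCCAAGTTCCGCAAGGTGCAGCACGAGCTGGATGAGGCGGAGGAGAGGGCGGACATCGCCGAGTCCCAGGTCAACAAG
Mhrt exon 4: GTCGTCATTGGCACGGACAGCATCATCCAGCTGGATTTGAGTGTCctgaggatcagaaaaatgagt

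**Figure D1:**
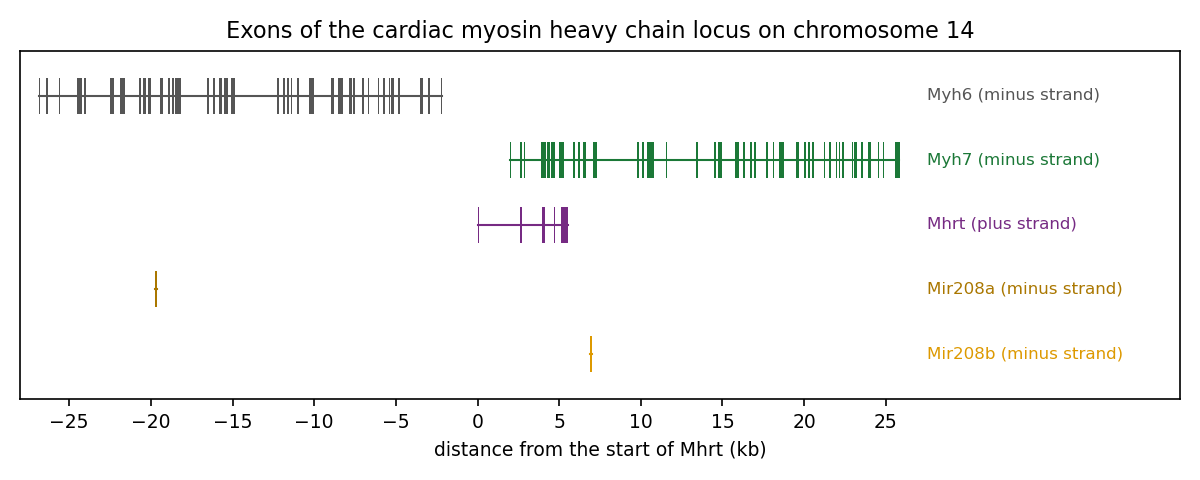
Exons (boxes) and introns (lines) of Myh6, Myh7, Mhrt, Mir208a and Mir208b, plotted by distance in kb from the start of Mhrt. Mhrt lies on the plus strand and shares 463 exon bases with Myh7 on the minus strand, while Myh6 ends its span 2145 bases before Mhrt begins.

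What a row can hold depends on how reads were given to transcripts, and neither the counting mode nor the strand setting is given in the sources used here. Myh6 and Myh7 have 2 transcript rows each, and those of 1 gene share nearly all their exon bases. Of the 6230 exon bases of the longer Myh7 row, 178 (2.86%) are its own, in a noncoding stretch at 54994333 to 54994510, and of the 6113 of the longer Myh6 row 105 (1.72%) are. The shorter Myh6 row has 0 bases of its own. Myh7b and Mhrt have 1 row each. On their own strand they share no exon base with the rows of the other members, of the intronic microRNA genes or of Trpc4ap, which lies opposite Myh7b. Rows of other genes were not compared in this way.

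Heart markers with several rows were near 0 as well. Of the 12 cardiomyocyte markers, 6 have 1 transcript row and summed to between 615 and 10934 counts over the 4 libraries, with the myosin light chain gene Myl2 the highest. The other 6 have several rows and summed to between 0 and 35 counts, among them the troponin gene Tnnt2 (0), the light chain gene Myl3 (0), the myoglobin gene Mb (3) and the titin gene Ttn (35). These are genes every heart muscle cell uses, so a value of 0 in such a row is no measure of the gene.

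For some genes the row opposite held more counts than the gene. How often this was so over all such pairs was not counted. It was not so for Myh7b (219 counts, and 0 for Trpc4ap opposite it) or Mb (3 counts, and 0 for Apol6). Over the 4 libraries, the row of Ckm, the muscle creatine kinase, held 1373 counts and the noncoding A930016O22Rik opposite it 26866. Xist, the RNA that coats the inactive X chromosome, held 22 counts, and Tsix opposite it 306. The Myh7 row held 78 and the Mhrt row 9543. Of the 10 named rows with the most counts, 8 have an exon opposite another annotated gene. That is near the share over all placed rows. Rows with such an exon held 67.5% of placed counts in dC10mut, 70.4% in NTG, 66.9% in tt and 68.1% in control. As the strand setting is not given, reads of Myh7 mRNA and of Mhrt cannot be told apart by row name here. The values below are given as those of rows. The strand setting applies to every row, also to those of Myh7b, Mir208b, the cardiomyocyte markers and the other genes named below, whether or not a counted gene lies opposite them.

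**Figure D2:**
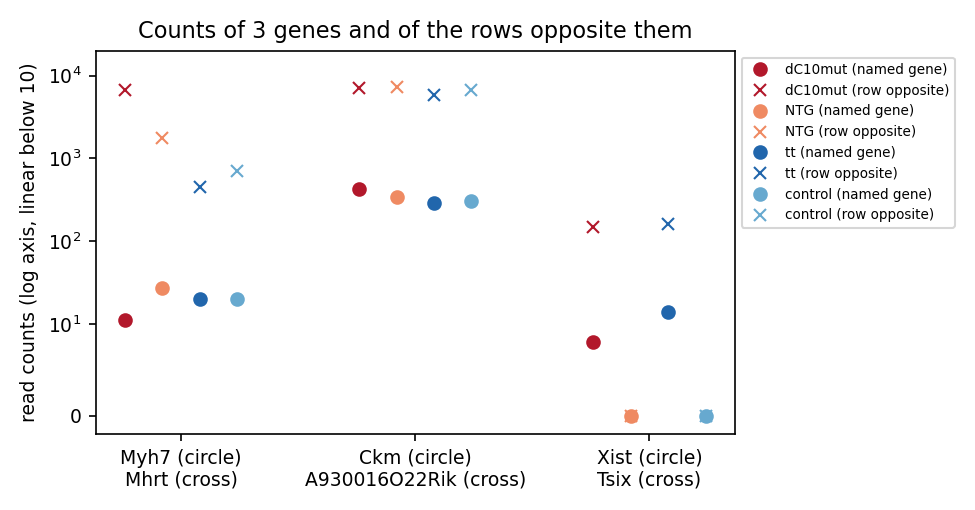
Read counts (vertical, log axis that is linear below 10) of Myh7, Ckm and Xist (circles) and of the rows opposite them, Mhrt, A930016O22Rik and Tsix (crosses), in each of the 4 libraries. The row opposite is the higher in every library with a count, from 6620 against 11 counts for Mhrt and Myh7 in dC10mut to 447 against 20 in tt.

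Mhrt carried nearly all counts of the group. The 4 genes together held 6667 counts (3.56% of the library) in dC10mut, 1875 (1.10%) in NTG, 513 (0.275%) in tt and 786 (0.445%) in control. The Mhrt row alone held 6620 counts in dC10mut, 1778 in NTG, 447 in tt and 698 in control. As levels these are 35362 CPM (95% Poisson interval 34516 to 36225) in dC10mut, 11093 (10584 to 11621) in NTG, 2320 (2109 to 2545) in tt and 3836 (3557 to 4131) in control. The order from high to low was dC10mut, NTG, control and tt, a 15.2-fold range, and every step in it was larger than its counting interval.

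In the HCM pair the Mhrt row was higher in dC10mut. Its level was 3.19-fold that of NTG (log2 ratio 1.67, 95% interval 1.60 to 1.75). Of the 8026 genes with a count in this pair, 1.79% were at least 2-fold higher with an interval that excludes equality, and 2.53% were lower by the same rule. Among the 508 genes with at least 100 counts in the pair, Mhrt ranked 3 from the top, below Rps18-ps4, a ribosomal pseudogene (814 counts in dC10mut and 1 in NTG), and Tsix (147 and 0). The median log2 ratio of those 508 genes was -0.11. Set against the other rows with high counts opposite another gene, the Mhrt ratio stood apart in size: A930016O22Rik had a log2 ratio of -0.25 (-0.30 to -0.20) and Map3k15, opposite the pyruvate dehydrogenase gene Pdha1, one of -0.33 (-0.37 to -0.30).

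The summed cardiomyocyte rows were higher in dC10mut too, but not every row was. The 5 marker rows with 1 transcript and no opposite exon (Actc1, Tnni3, Myl2, Ryr2 and Actn2) summed to 6410 counts or 34241 CPM in dC10mut and 4522 counts or 28214 CPM in NTG. Myl2 made up most of that sum, with 3520 counts in dC10mut and 2405 in NTG, while Actn2, the Z-disc protein alpha-actinin, held 264 counts in dC10mut and 299 in NTG. Ryr2, the calcium release channel, held 144 in dC10mut and 129 in NTG. Of the 12 cardiomyocyte markers 10 held a count in this pair, and 0 were at least 2-fold higher or lower with an interval that excludes equality. Their median log2 ratio was -0.12, against -0.11 over the 8026 genes with a count. For the 7 markers with at least 10 counts over the pair the median was 0.11 (4 positive, 3 negative), against -0.0015 over the 2862 such genes. Per 100 counts of those 5 rows, Mhrt had 103 counts in dC10mut, 39.3 in NTG, 9.29 in tt and 13.9 in control. With these rows as the scale, chosen after the values were seen, the log2 ratio of dC10mut over NTG was 1.39 (1.32 to 1.47).

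In the DCM pair the Mhrt row was lower in tt, by less than 2-fold. Its level in tt was 0.605 times that in control (log2 ratio -0.73, -0.90 to -0.55). Of the 8240 genes in this pair, 2.71% were at least 2-fold higher and 1.58% at least 2-fold lower with an interval that excludes equality. By this rule 0 of the 4 members were either. Among the 529 genes with at least 100 counts, Mhrt ranked 55 from the bottom. The 5 cardiomyocyte rows summed to 24970 CPM in tt and 27609 CPM in control. The difference between the pairs' log2 ratios, tt over control minus dC10mut over NTG, was -2.40 for Mhrt (-2.58 to -2.21).

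The libraries without either model differed in Mhrt nearly as much as the HCM pair did. Control held 698 counts and NTG 1778, a log2 ratio of -1.53 (-1.66 to -1.40) with control the lower. Here 1.4% of 8143 genes were at least 2-fold higher in control and 1.69% at least 2-fold lower, by the rule with the interval. Mhrt ranked 3 from the bottom of the 498 genes with at least 100 counts. These libraries carry different strain labels, which the libraries of a pair share. Between the model libraries, tt held 447 counts and dC10mut 6620 (log2 ratio -3.93, -4.07 to -3.79). That ratio was the lowest of the 522 genes with at least 100 counts in those libraries, of which 7 were at least 2-fold lower in tt by ratio alone; over all 8090 genes 1.69% were higher and 1.48% lower by the rule with the interval.

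**Figure D3:**
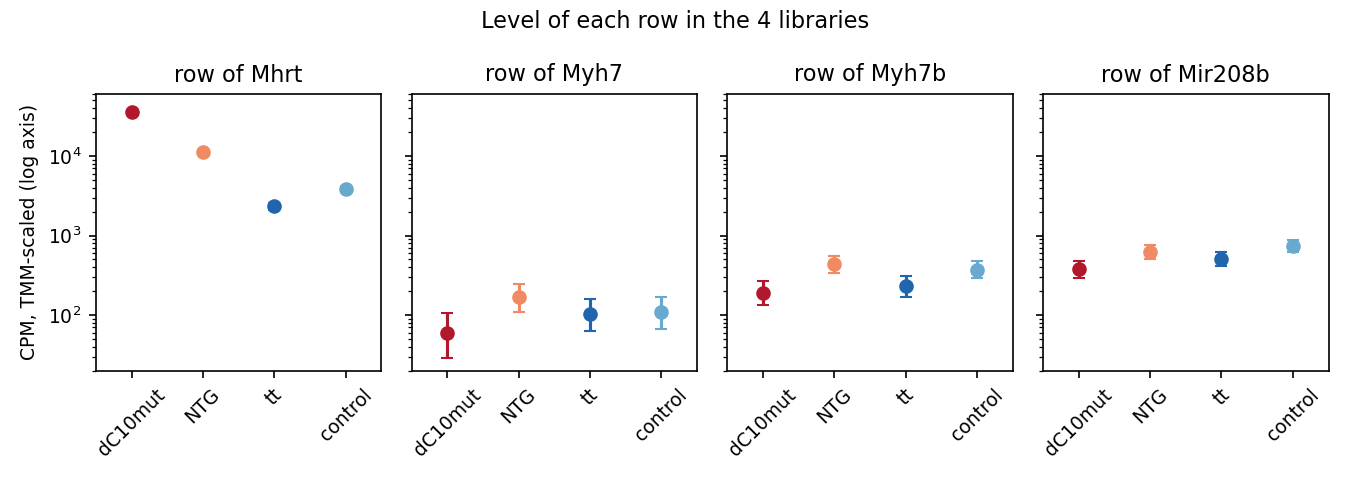
Level (CPM, TMM-scaled, log axis) of the rows of Mhrt, Myh7, Myh7b and Mir208b in dC10mut, NTG, tt and control; points are 1 library each and bars the 95% Poisson interval of the count. Mhrt spans 2320 CPM in tt to 35362 CPM in dC10mut, while the other rows stay between 58.8 and 736 CPM.

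The Myh7 row was sparse. It held 11 counts in dC10mut, 27 in NTG, 20 in tt and 20 in control, all in the longer of its 2 transcripts, which are 58.8, 168, 104 and 110 CPM in that order. In the order of levels (NTG, control, tt, dC10mut) no neighbouring libraries differed beyond their counting intervals. In the HCM pair the log2 ratio was -1.47 (-2.68 to -0.46), lower in dC10mut, which is the opposite direction to Mhrt. In the DCM pair it was -0.08 (-1.05 to 0.89). The difference between the pairs was 1.39 (0.07 to 2.72), and with library totals in place of TMM it was 1.31 with an interval that includes 0 (-0.02 to 2.64).

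Summing the Myh7 and Mhrt rows gives a value for which reads of the exons they share need not be told apart. The sum was 6631 counts in dC10mut, 1805 in NTG, 467 in tt and 718 in control. Its log2 ratio was 1.65 (1.58 to 1.73) for dC10mut over NTG and -1.51 (-1.64 to -1.39) for control over NTG. In the HCM pair the sum was thus higher in dC10mut where the Myh7 row alone was lower, and nearly all of it came from the Mhrt row. Per kb of exon length, Mhrt had 42708 CPM per kb and Myh7 9.43 in dC10mut, 13398 and 27.0 in NTG, 2801 and 16.7 in tt, and 4633 and 17.6 in control; if reads shared between rows were left out of the counting, the length the Myh7 row could draw on is shorter than the one used here.

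Myh7b, on chromosome 2 (155611212 to 155634307, plus strand), has a row of its own and 37 of its 6163 exon bases opposite Trpc4ap, whose rows held 0 counts. It held 36 counts in dC10mut, 70 in NTG, 45 in tt and 68 in control, or 192, 437, 234 and 374 CPM in that order. Both control libraries were above both model libraries. The log2 ratio was -1.17 (-1.81 to -0.58) in the HCM pair, where dC10mut was at least 2-fold lower, and -0.67 (-1.26 to -0.11) in the DCM pair. The difference between the pairs was 0.50 (-0.29 to 1.29), with an interval that includes 0, and 0.92 (0.13 to 1.71) on the scale of the 5 cardiomyocyte rows. Control and NTG differed by -0.22 (-0.73 to 0.28), and tt and dC10mut by 0.28 (-0.38 to 0.95). In the order of levels (NTG, control, tt, dC10mut) the step between control and tt was the 1 that exceeded its interval. Per 100 counts of the 5 cardiomyocyte rows, Myh7b had 0.562 counts in dC10mut, 1.55 in NTG, 0.935 in tt and 1.35 in control. In all, 2 of the 4 members were at least 2-fold lower in dC10mut than in NTG (Myh7 and Myh7b, against 2.53% of all genes) and 1 was higher (Mhrt, against 1.79%).

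Myh6 is listed at 0 counts in dC10mut, NTG and control and at 1 count in tt. Taking 3 counts as the most that a count of 0 allows, the limit is 16.0 CPM in dC10mut, 18.7 CPM in NTG and 16.5 CPM in control for what its rows can hold; the upper ends of the 95% Poisson intervals are 19.7 CPM in dC10mut, 23.0 in NTG and 20.3 in control. No level or ratio of the alpha chain, and so no ratio of alpha to beta chain, can be read from these rows.

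**Figure D4:**
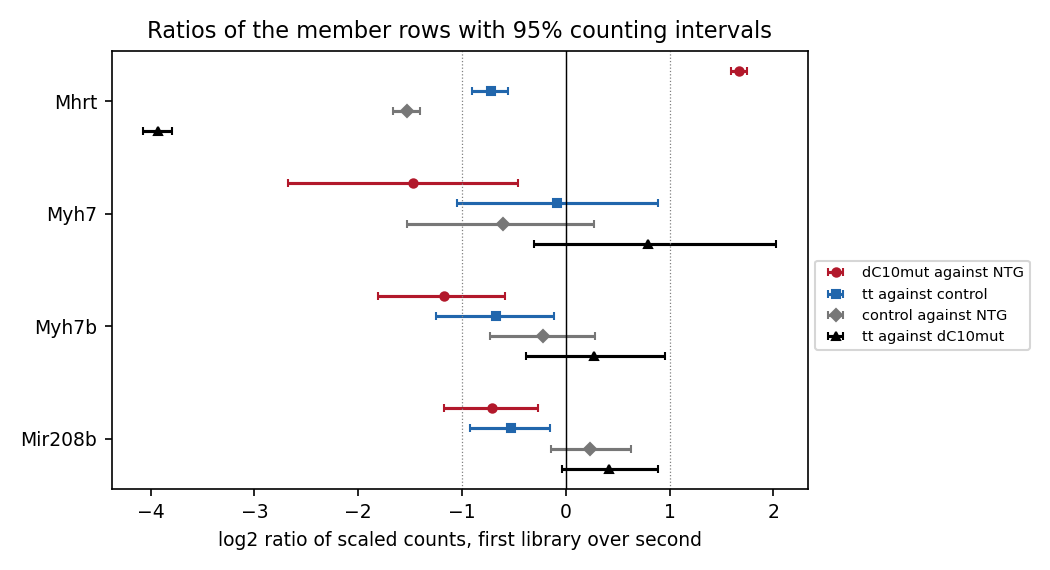
Log2 ratio of scaled counts, first library over second, for the rows of Mhrt, Myh7, Myh7b and Mir208b in 4 comparisons; bars are 95% counting intervals, the solid line marks equality and the dotted lines 2-fold. Mhrt is at 1.67 for dC10mut against NTG and at -0.73 for tt against control, while Myh7b and Mir208b lie below 0 in both pairs.

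The intronic microRNA genes have rows of their own. Poly(A) selection does not capture mature microRNAs, so a count here is a read of a longer RNA across the hairpin. The mature strands, from RefSeq (GRCm38.p6), are shown because the 3 hosts carry related microRNAs; capitals mark the seed, bases 2 to 8 from the 5′ end.
mmu-miR-208a-3p: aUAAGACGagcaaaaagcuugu
mmu-miR-208b-3p: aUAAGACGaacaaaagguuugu
mmu-miR-499-5p: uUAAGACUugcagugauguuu
The seeds of miR-208a-3p and miR-208b-3p are the same, and that of miR-499-5p differs from them by G8U (the base of miR-208b-3p first, counted from the 5′ end). The Mir208a and Mir499 rows held 0 counts in every library.

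Mir208b, 77 bases at 54975700 to 54975776 in an intron of Myh7 and 1350 bases past the end of Mhrt, held 71 counts in dC10mut, 100 in NTG, 98 in tt and 134 in control. Both model libraries were below their own controls, with a log2 ratio of -0.71 (-1.18 to -0.26) for dC10mut over NTG and -0.53 (-0.93 to -0.15) for tt over control. In its order of levels (control, NTG, tt, dC10mut) no step exceeded its interval. Control over NTG was 0.24 (-0.15 to 0.63). The Mir208b row thus went lower in dC10mut where the Mhrt row, from the same locus, went higher.

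Patterns over the 4 libraries were compared by the root mean square difference of log2 CPM centred on each gene's mean, among genes with at least 100 counts in all. Among the 3 genes nearest to Mhrt, of 898, were Mir6236 (295 counts in dC10mut, 112 in NTG, 80 in tt and 94 in control; difference 0.81) and Pcp4l1 (89, 26, 31 and 18 counts in that order; 0.95). No gene compared was as near to Mhrt as the nearest were to the other members. This difference depends on the range of a gene's levels, which was 15.2-fold for Mhrt, 2.87-fold for Myh7 and 2.27-fold for Myh7b. It therefore cannot show how particular the pattern of Mhrt is. For Myh7b the nearest genes were Mrpl19, of the mitochondrial ribosome (0.05), 1700113A16Rik (334, 673, 416 and 692 counts, 0.06) and Ints11, of the Integrator complex (0.06). For Myh7 they were D630044L22Rik (0.06), B3gntl1 (0.10) and Csrnp2 (0.10), each with 25 to 33 counts in dC10mut.

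Most rows of the other myosin heavy chains are listed at 0. Of 11 genes, 3 held a count in dC10mut or NTG and 2 in tt or control. Myh9, a nonmuscle heavy chain, held 14 counts in dC10mut and 27 in NTG (log2 ratio -1.14, -2.22 to -0.19), and 18 in tt and 21 in control (-0.30). It was the 1 gene of the list at least 2-fold lower in dC10mut with an interval that excludes equality (2.53% of all genes were). The fast skeletal muscle list summed to 0 counts in dC10mut, 3 in NTG, 0 in tt and 2 in control. A row at 0 is not read as absence of the gene.

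Among thick filament partners of the heavy chains, 8 of 13 held a count in the HCM pair. By the rule with the interval, 0 of these were at least 2-fold higher or lower (1.79% and 2.53% of all genes were). In the DCM pair 6 held a count, of which 1 was higher (2.71% of all genes were) and 0 lower (1.58% were). The medians were -0.26 and 0.55, against -0.11 and -0.06 over all genes measured. Myom2, a protein of the M-band that crosslinks thick filaments, held 217 counts in tt and 88 in control (log2 ratio 1.21, 0.86 to 1.59) and 134 in dC10mut and 165 in NTG (-0.52, -0.86 to -0.19). It had the opposite sign to Mhrt in each pair, but the same sign between the libraries without a model, with 88 counts in control and 165 in NTG (-1.09, -1.48 to -0.71). Mybpc3 was at 0.55 in the DCM pair (0.32 to 0.78) and -0.13 in the HCM pair (-0.34 to 0.09).

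Of 10 genes of myosin folding and turnover, 9 held a count in each pair and 0 were at least 2-fold higher or lower with an interval that excludes equality. Over all genes, 1.79% were higher and 2.53% lower in the HCM pair, and 2.71% and 1.58% in the DCM pair. Their median log2 ratio was 0.73 for tt over control and -0.05 for dC10mut over NTG, against -0.06 and -0.11 over all genes measured. For the 8 with at least 10 counts over the pair the medians were 0.59 and 0.0083, against -0.06 and -0.0015 over all such genes. Hsp90aa1, a chaperone that folds myosin together with Unc45b, held 26 counts in tt and 13 in control (0.89, -0.10 to 2.00) and 12 in dC10mut and 14 in NTG. Trim55, a muscle ubiquitin ligase, held 18 in dC10mut and 7 in NTG (1.09, -0.19 to 2.64) and 12 in tt and 6 in control.

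The regulators of the alpha and beta chain genes were mostly too sparse to compare. Of 12 thyroid hormone receptor and cofactor genes, 1 was at least 2-fold lower and 0 higher in dC10mut, of 6 with a count, and 1 higher and 0 lower in tt, of 8. Over all genes, 2.53% were lower in dC10mut and 2.71% higher in tt. Thra, the main thyroid hormone receptor gene of the heart, held 302 counts in dC10mut and 575 in NTG (log2 ratio -1.15, -1.36 to -0.95), and 416 in tt and 536 in control (-0.45, -0.64 to -0.26). It lies opposite Nr1d1, a clock repressor, so the strand limit given for Mhrt holds for it too. Thra has 2 transcript rows, and how far these share exon bases is not given here, so its values are those of rows. Med13, a Mediator subunit and a known target of miR-208a that lies opposite Brip1os, held 12 counts in tt and 1 in control (2.99, 0.75 to 8.92), and 11 in dC10mut and 7 in NTG (0.40, -1.07 to 2.03). Its count in control was also below that in NTG (-2.47, -8.48 to -0.03), while tt over dC10mut was 0.08 (-1.22 to 1.41).

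Thyroid hormone responsive heart genes summed to 23 counts in dC10mut, 13 in NTG, 20 in tt and 13 in control. Of the 7 with a count, 0 were past 2-fold by the rule with the interval in either pair. Over all genes, 1.79% were higher and 2.53% lower in the HCM pair, and 2.71% and 1.58% in the DCM pair. Of 17 transcription factors of heavy chain promoters, 8 held a count in the HCM pair, with 0 past 2-fold by this rule. In the DCM pair 7 held a count and 1 was higher by it, where 2.71% of all genes were. That gene was Srf, serum response factor, with 14 counts in tt and 2 in control (2.46, 0.60 to 5.91). In the HCM pair Srf held 10 counts in dC10mut and 4 in NTG (1.02, -0.70 to 3.22), with an interval that includes equality. Of 7 chromatin factors, 4 held a count in each pair and 0 were past 2-fold by that rule. Parp1 held 11 counts in tt and 3 in control (1.64, -0.13 to 4.27), past 2-fold by ratio with an interval that includes equality. It held 10 in dC10mut and 7 in NTG (0.27, -1.25 to 1.92). Hdac2, a histone deacetylase, held 32 counts in dC10mut and 21 in NTG (0.38, -0.46 to 1.25), and 19 in tt and 31 in control (-0.77, -1.69 to 0.08).

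Of 5 fetal and stress genes, which often change together with Myh7, 2 held counts. Nppa, the atrial natriuretic peptide gene, which has an exon opposite another annotated gene, held 22 counts in dC10mut and 9 in NTG (1.03, -0.11 to 2.37), and 16 in tt and 60 in control (-1.96, -2.88 to -1.18). Its sign was that of Mhrt in each pair, but between the libraries without a model it was higher in control than in NTG (log2 ratio 2.49, 1.53 to 3.75), where Mhrt was lower. Ankrd1, a stress-responsive ankyrin repeat gene, held 196 counts in dC10mut and 227 in NTG (-0.43, -0.72 to -0.15), and 321 in tt and 609 in control (-1.01, -1.21 to -0.81). Between the libraries without a model, Ankrd1 too was higher in control than in NTG (log2 ratio 1.24, 1.02 to 1.47). Of 6 atrial markers, Nppa was the 1 with a count. The rows of the defining atrial genes Myl7, Myl4 and Sln were at 0 in every library. How many transcript rows these genes have is not given here, so a 0 is not read as absence of the gene.

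Markers of other cell types also differed between the libraries. Endothelial markers summed to 1245 CPM in dC10mut, 1379 in NTG, 685 in tt and 1412 in control. Of these 6 markers 4 were counted, and the rows of Pecam1 and Tek were at 0, which is not read as absence either. Fibroblast markers summed to 214, 312, 202 and 385 CPM and smooth muscle markers to 278, 212, 223 and 341 CPM, in the same library order. Macrophage markers summed to 246, 93.6, 77.8 and 231 CPM in that order, from only 46, 15, 15 and 42 counts. The part of these cell types in the values of Mhrt, Myh7b and Mir208b was not tested. Skeletal muscle markers held 1 count, in NTG, and 0 in the other libraries, which is likewise not read as absence.

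**Figure D5:**
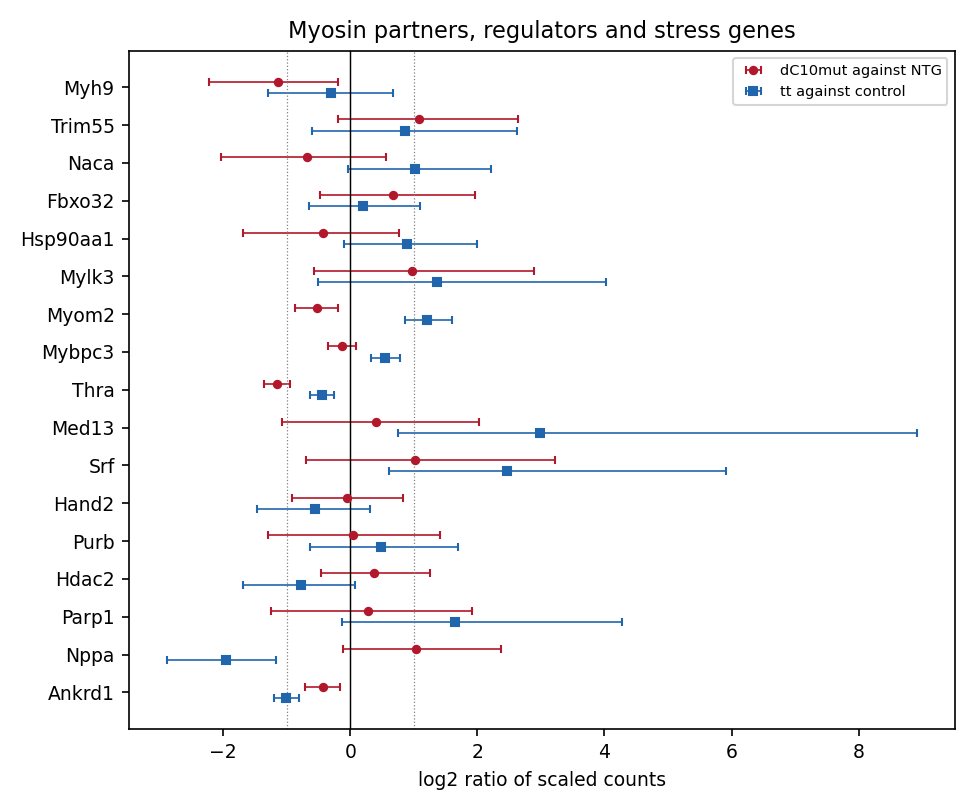
Log2 ratio of scaled counts of the named partners, regulators and stress genes in dC10mut against NTG (circles) and tt against control (squares), with 95% counting intervals; the solid line marks equality and the dotted lines 2-fold. Myom2 lies below 0 in the HCM pair and above 0 in the DCM pair, and most regulators have intervals that span equality.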

How the data were processed

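RNA of 3 hearts combined was measured in 1 library for each of 4 groups. The authors deposited unnormalized whole-number counts of reads for each RefSeq transcript. The tools STAR and HTSeq and the mouse build mm10 are named per the submitters' processing notes; versions, counting mode and strand setting are not given in the sources used here. Of 41449 rows, 41351 matched a symbol in RefSeq's or GENCODE's tables (the other 98 held 1.83% of counts and stay in the library totals). Counts were summed per symbol. Exons came from GENCODE M21 (GRCm38), which placed 35347 rows, with bedtools 2.31.1 for overlaps.

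Libraries were scaled with TMM factors (edgeR 4.0.16) of 0.999 for dC10mut, 0.940 for NTG, 1.03 for tt and 1.03 for control. For log2 ratios, 0.5 counts were added in proportion to library size, with exact Clopper-Pearson conditional binomial 95% intervals (scipy 1.17.1). Genes are called higher or lower at 2-fold or more with an interval that excludes equality. The difference between pairs used a normal approximation. A difference common to both pairs was not tested.

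Named list genes, with at least 10 counts in a library of the pair, were those past this rule and, where fewer than 3 were, those with the next largest ratios; some are shown only in a plot, and a few genes that meet a naming rule are not reported here, though they stay in the counts and medians. The members and lists were chosen with earlier results of these data known. Alternatives were other scalings, a prior count of 2, Wilson intervals, the top transcript of a gene, and the Myh7 and Mhrt rows summed. PCR copies are not independent molecules, so intervals and the floor of 3 counts cover counting error only.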

Additional observations from a re-analysis of the deposited data

Results flagged for a closer look

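The Mhrt row had ratios of opposite sign in the 2 pairs, with intervals that exclude equality in each. The log2 ratio was 1.67 for dC10mut over NTG and -0.73 for tt over control. With 1 library per group the difference between the pairs was not tested over samples.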

How the results depend on the processing

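The ratios of Mhrt, Myh7 and Myh7b in the 4 comparisons kept their side of the 2-fold rule under every other scaling, prior count, interval and transcript choice, with 1 exception: Myh7 in tt over dC10mut was 1.23, past the rule, when scaled on 5 cardiomyocyte rows, a scale chosen after seeing the data. Mhrt ranged from 1.39 to 1.80 in dC10mut over NTG and from -0.78 to -0.58 in tt over control, and Myh7b from -1.45 to -1.05 and from -0.72 to -0.53. The difference between pairs for Myh7 lost its interval with library totals (1.31) and with library totals without the 4 members (1.28); the cause was not tested. Summing the Myh7 and Mhrt rows turned Myh7 round to 1.65 in dC10mut over NTG, -3.87 in tt over dC10mut and -2.36 for the difference between pairs, and took control over NTG past the rule at -1.51. On the 5 cardiomyocyte rows the difference for Myh7b was 0.92 (0.13 to 1.71), and its tt over control ratio of -0.53 had an interval that includes 0 (-1.11 to 0.03). By construction the Myh7 and Mhrt sum is mostly Mhrt. The number of genes at least 2-fold lower in control than in NTG by the rule with the interval was 138, and 84 with library totals. No paired analysis was possible because each group has 1 library. Few counts limit Myh7 and Myh7b, rows that share exons limit Myh6 and Myh7, and the strand setting bears on every row.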
